A study of Mus musculus with 11 samples.

Results

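The genes described here are 4 CXC chemokines and the only CX3C chemokine of the mouse, Cxcl1, Ppbp, Cxcl12, Cxcl16 and Cx3cl1, in induced pluripotent stem cells (iPSC) grown with and without feeder cells. They were taken by annotated gene symbol, and they are 5 of the 10058 genes measured on the arrays. All 5 had at least 1 probe above background. They were chosen from results on these same arrays, by their differences between the culture conditions, so their levels and differences are given as a description with no p-value.

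The study hybridized RNA of C57BL/6 mouse cells to Illumina BeadChips, which read each transcript as the brightness of beads that carry a short probe. There were 3 arrays of iPSC grown on a layer of feeder cells and lifted off it mechanically, 3 arrays of iPSC grown without feeder cells in medium with 15% serum and LIF at 1000 units per ml, and 2 arrays of the feeder cells alone. LIF is leukemia inhibitory factor, the cytokine that holds mouse pluripotent cells undifferentiated. The authors also calculated 3 mixtures in silico, taking 92% of the signal from feeder-free iPSC and 8% from feeder cells, as a stand-in for feeder RNA carried over into the on-feeder samples. The feeder arrays are labelled as embryonic fibroblasts that themselves expressed LIF. Their name there is MSTO, while the growth protocol names SNL76/7 cells treated with mitomycin C, and how these relate is not stated; levels relative to the feeder layer hold only as far as it resembled the cells on the feeder arrays. Replicates are numbered but not said to be separate cultures, so p-values measure only the spread between these samples, which may be technical.

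Each deposited feeder-free column mixed pooled signals, 91% of the feeder-free mean with 9% of the feeder mean in replicates 1 and 2, and 92% with 8% in replicate 3. The signals of single feeder-free arrays were therefore recovered from the mixture columns. Their detection scores, which decide whether a probe is above background, are those deposited beside the pooled feeder-free columns. Arrays detected 17630 to 19043 probes in on-feeder iPSC, 17307 to 18759 in feeder-free iPSC and 13581 to 14574 in feeder cells. The number of arrays limits the precision. The labelled cell types carried their markers. The summed normalized signal of 9 pluripotent cell markers was 19475 to 20956 on on-feeder arrays, 21534 to 22504 on feeder-free arrays and 250 to 420 on feeder arrays. That of 9 fibroblast markers was 2591 to 2662 on on-feeder arrays, 753 to 787 on feeder-free arrays and 10275 to 12292 on feeder arrays. Of the fibroblast markers, Col1a2, Col3a1, Postn and Lum were detected on no array by their brightest probe, feeder cells included. In on-feeder against feeder-free iPSC, 4 of the 5 measured fibroblast markers were higher (S100a4, Dcn, Thy1 and Col1a1, log2 differences 3.62, 2.44, 1.51 and 1.25) and 1 of 9 pluripotent cell markers was lower (Utf1, -0.51). Against the mixture, S100a4 and Dcn were higher too (2.15 and 1.89), and the other 3 measured fibroblast markers did not pass the threshold given below. In each bulk sample, fewer cells of a type and less RNA per cell cannot be told apart.

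Chemokines are small secreted or membrane-held proteins that draw cells along a concentration gradient through receptors coupled to G proteins. Cxcl1 and Ppbp belong to the ELR class, which acts on Cxcr2 and recruits neutrophils, and their genes sit in one cluster. Cxcl12 is a product of stromal cells that holds stem and progenitor cells in place through Cxcr4 and is taken up by Ackr3. Cxcl16 and Cx3cl1 are made as transmembrane proteins on a mucin-like stalk, hold cells that carry Cxcr6 or Cx3cr1, and become soluble when proteases such as Adam10 and Adam17 cut the stalk.

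Cxcl1 lies on chromosome 5 at 90891245 to 90893121 and Ppbp on the same chromosome at 90768518 to 90770063, 121.2 kb apart (GRCm38.p6). Cxcl12 lies on chromosome 6 at 117168535 to 117181368, Cxcl16 on chromosome 11 at 70454389 to 70459984 and Cx3cl1 on chromosome 8 at 94772180 to 94782427. The windows from 250 bases before to 50 bases after the annotated start, from RefSeq, are shown for 4 members. Cxcl1 and Ppbp were taken because they had the largest differences between on-feeder and feeder-free iPSC and come from one cluster. Cxcl12 and Cx3cl1 were taken because their own highest mean was in feeder cells. Capitals mark the letters of an NF-kB motif (GGNNTTTCC) or a TATA box (TATAAA) on either strand. All 4 are the plus strand of GRCm38.p6, 5′ to 3′, at chr5:90890995-90891294 for Cxcl1, chr5:90768268-90768567 for Ppbp, chr6:117168285-117168584 for Cxcl12 and chr8:94771930-94772229 for Cx3cl1. Cxcl16 was not matched in the table used.
Cxcl1: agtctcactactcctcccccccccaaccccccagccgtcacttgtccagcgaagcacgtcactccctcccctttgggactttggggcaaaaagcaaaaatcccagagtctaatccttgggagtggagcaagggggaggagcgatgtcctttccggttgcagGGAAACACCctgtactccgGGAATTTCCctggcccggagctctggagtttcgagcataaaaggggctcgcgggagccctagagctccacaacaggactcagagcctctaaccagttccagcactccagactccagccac
Ppbp: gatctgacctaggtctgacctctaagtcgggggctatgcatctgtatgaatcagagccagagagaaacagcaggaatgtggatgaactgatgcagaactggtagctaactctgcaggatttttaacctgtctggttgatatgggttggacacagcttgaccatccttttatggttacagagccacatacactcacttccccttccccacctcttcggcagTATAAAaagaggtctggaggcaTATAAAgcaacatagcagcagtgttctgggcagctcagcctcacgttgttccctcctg
Cxcl12: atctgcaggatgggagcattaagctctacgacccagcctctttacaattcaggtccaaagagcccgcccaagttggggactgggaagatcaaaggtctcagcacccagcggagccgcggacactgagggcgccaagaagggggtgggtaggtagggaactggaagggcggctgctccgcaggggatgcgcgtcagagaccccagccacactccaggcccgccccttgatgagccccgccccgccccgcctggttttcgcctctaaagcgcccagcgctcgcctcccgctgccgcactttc
Cx3cl1: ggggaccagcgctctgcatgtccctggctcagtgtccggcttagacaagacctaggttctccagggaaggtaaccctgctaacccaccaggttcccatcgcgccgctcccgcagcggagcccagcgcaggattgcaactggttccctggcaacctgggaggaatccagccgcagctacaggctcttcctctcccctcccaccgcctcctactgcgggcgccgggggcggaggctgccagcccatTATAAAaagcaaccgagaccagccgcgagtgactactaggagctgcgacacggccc

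The Cxcl1 window held 2 NF-kB matches, which begin 89 and 70 bases before the start, on the minus and the plus strand. Of 32851 mouse promoter windows of the same length, 5.8% held this motif on either strand. No NF-kB match was in the windows of Ppbp, Cxcl12 or Cx3cl1. Ppbp held 2 TATAAA matches, 30 and 8 bases before the start, and Cx3cl1 held 1 that begins 6 bases before it; 13.6% of all windows held one. Ppbp also held 1 match to the AP-1 motif TGANTCA, found in 7.8% of windows. Cxcl12 held 5 GC boxes (GGGCGG), a pair of which share 1 base, and Cx3cl1 held 1, against 35.7% of all windows with at least 1. No window held the STAT motif TTCNNNGAA, present in 8.3% of all windows. No motif searched overlapped another kind. The G and C content was 58.7% for Cxcl1, 48.7% for Ppbp and 64.7% for both Cxcl12 and Cx3cl1. A match describes letters, not a bound site.

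Across all genes, limma with Benjamini-Hochberg adjustment at 0.05 called 18.5% of 10058 genes in on-feeder against feeder-free iPSC, 11% in on-feeder iPSC against the mixture, 80.8% in on-feeder iPSC against feeder cells and 81.9% in feeder-free iPSC against feeder cells. All 5 chemokines were past that threshold in each of these comparisons, which share arrays. Nothing is read from this count, since those contrasts chose the genes. Against feeder-free iPSC, 4 were higher and 1 lower in on-feeder iPSC. Against the mixture, 3 were higher and 2 lower in on-feeder iPSC. Of all 10058 genes, 1009 were called higher and 851 lower in on-feeder than in feeder-free iPSC, and 571 and 535 against the mixture.

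**Figure D1:**
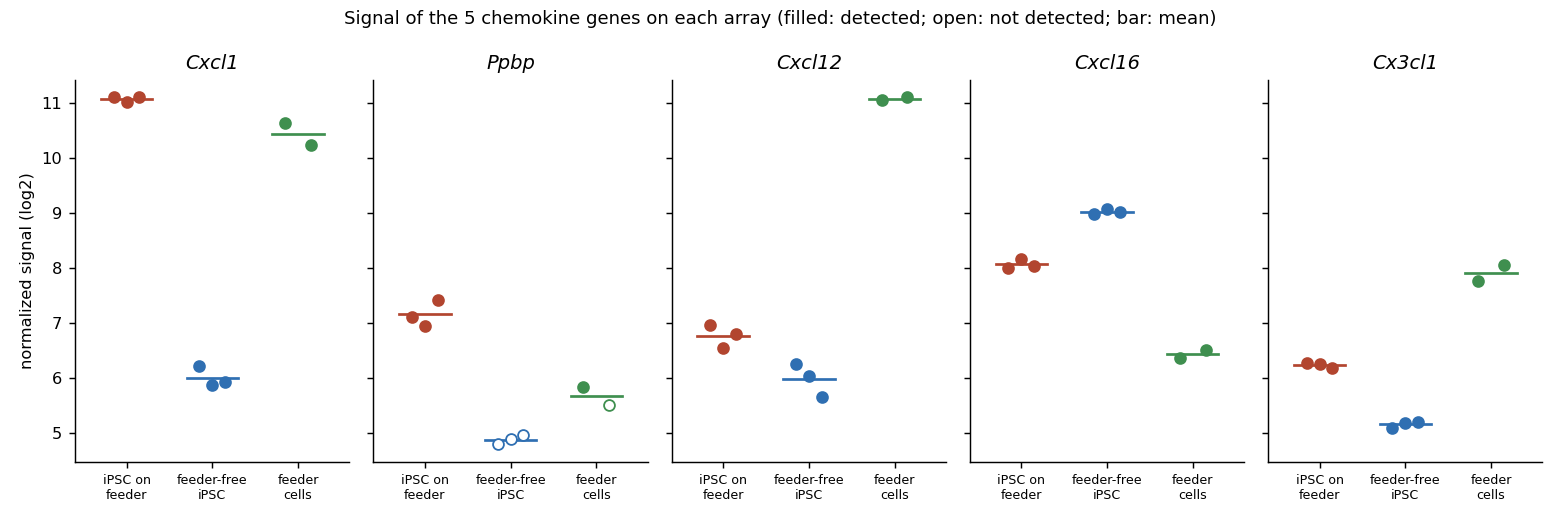
Normalized signal (log2) of the brightest kept probe of each gene on each of the 8 arrays, with bars at the group means; open points were not above background. Cxcl1 and Ppbp are highest in iPSC on feeder, Cxcl12 and Cx3cl1 in feeder cells, and Cxcl16 in feeder-free iPSC.

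Cxcl1, known in the mouse as KC, had the largest difference of the 5. Its signal was 11.10, 11.01 and 11.10 (log2) on the 3 on-feeder arrays, 6.23, 5.87 and 5.93 on the 3 feeder-free arrays, and 10.64 and 10.24 on the 2 feeder arrays. The on-feeder arrays were the highest and the feeder-free arrays the lowest, with no overlap between any 2 groups. The means were 11.07 ± 0.05 in on-feeder iPSC (SD, n = 3), 6.01 ± 0.19 in feeder-free iPSC (SD, n = 3) and 10.44 ± 0.28 in feeder cells (SD, n = 2). On-feeder iPSC were thus 5.06 log2 units above feeder-free iPSC (SE 0.13), a 33.4-fold difference and the highest of all 10058 genes. They were also 0.64 above the feeder cells themselves (SE 0.14), 1.56-fold, and this gap ranged from 0.44 to 0.83 when single arrays were left out. Feeder-free iPSC were 4.43 below feeder cells (SE 0.14), 21.5-fold. With a background correction that used a larger offset of 50 and no detection scores, the 3 differences were smaller. They were 4.22 for on-feeder against feeder-free iPSC, 0.62 for on-feeder iPSC against feeder cells and -3.61 for feeder-free iPSC against feeder cells. Among genes ranked by level within a group, Cxcl1 stood at percentile 91.8 in on-feeder iPSC, 28.3 in feeder-free iPSC and 86.4 in feeder cells.

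Set against the rebuilt mixture, Cxcl1 was 11.09, 11.01 and 11.09 on on-feeder arrays and 7.41, 7.42 and 7.58 in the mixtures. The difference was 3.60 (SE 0.10), 12.1-fold and again the highest of all genes. It was 3.26 with the offset of 50.

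Ppbp encodes the precursor of platelet basic protein, whose cleaved form Cxcl7 acts on neutrophils. Its signal was 7.12, 6.96 and 7.42 on on-feeder arrays, 4.80, 4.90 and 4.96 on feeder-free arrays, and 5.84 and 5.52 on feeder arrays. It was above background on 3 of 3 on-feeder arrays, on none of the feeder-free arrays and on 1 of 2 feeder arrays. The on-feeder arrays overlapped neither of the other groups. The means were 7.16 ± 0.23 in on-feeder iPSC (SD, n = 3), 4.89 ± 0.08 in feeder-free iPSC (SD, n = 3) and 5.68 ± 0.22 in feeder cells (SD, n = 2).

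Because the feeder-free arrays gave only a bound, Ppbp was at least 4.49-fold higher in on-feeder iPSC, counted against the lowest signal above background on each feeder-free array. On-feeder iPSC were 1.49 log2 units above feeder cells (SE 0.15), with the dimmer feeder array not above background. Between feeder-free iPSC and feeder cells no fold is given, since 4 of those 5 arrays were not above background. Beside the mixture, Ppbp was 7.29, 7.14 and 7.57 on on-feeder arrays and 4.84, 4.95 and 5.01 in the mixtures, at least 4.87-fold higher. These bounds hold only for the background correction used. A larger offset of 50 without the detection scores gave log2 differences of 1.32 from feeder-free iPSC, 1.41 from the mixtures and 0.92 from feeder cells, the first and second of which are below the bounds.

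An on-feeder mean at least 1 log2 unit above both of the other kinds of culture was found for 5 genes of 10058. These were Ppbp, Mmp13, Mmp10, Serpinb2 and Wwtr1, singled out after their values were seen. Ppbp was the member among them, and at 0.5 log2 units 78 genes met the same description. Ppbp and Mmp13 passed the filter only through the on-feeder arrays, where they were high, so the count is not separate from the filter. With the offset of 50, Ppbp was 0.92 above feeder cells, short of 1 log2 unit. Mmp13 and Mmp10 are secreted matrix proteases, Serpinb2 an inhibitor of plasminogen activators and Wwtr1 a coactivator of the Hippo pathway.

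**Figure D2:**
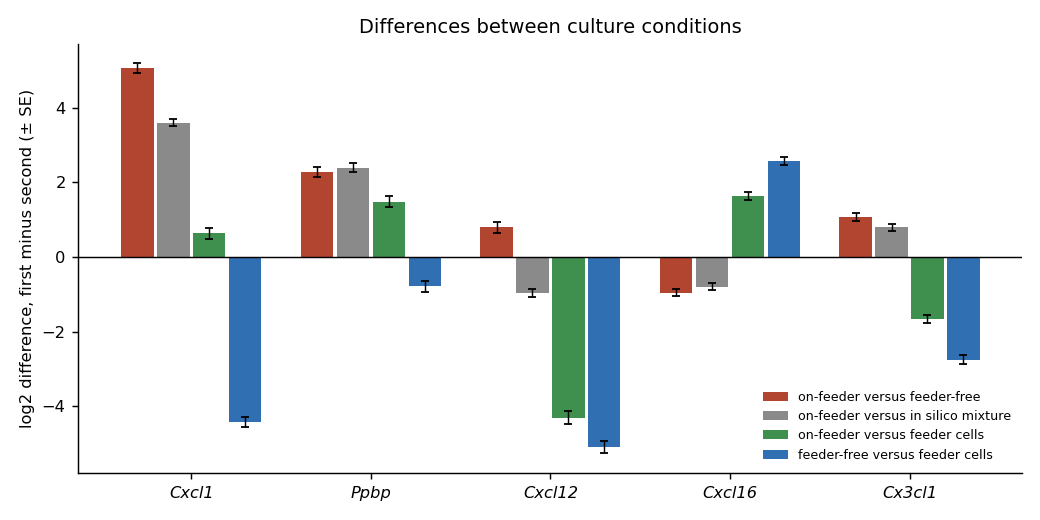
Log2 differences with standard errors for the 5 genes in 4 comparisons, the first-named group minus the second. The on-feeder bars against feeder-free iPSC reach 5.06 for Cxcl1, and the Ppbp bars use signals not above background in feeder-free iPSC and the mixtures, while Cxcl12 turns from 0.79 against feeder-free iPSC to -0.96 against the mixture.

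Cxcl12, also called SDF-1, was the chemokine most marked in feeder cells. On its brighter probe it had 6.96, 6.55 and 6.81 on on-feeder arrays, 6.25, 6.04 and 5.65 on feeder-free arrays, and 11.05 and 11.11 on feeder arrays. All 8 arrays were above background and feeder cells were far above both kinds of iPSC. On-feeder and feeder-free arrays lay next to each other in the order, the lowest on-feeder array 0.30 above the highest feeder-free array. The means were 6.78 ± 0.21 in on-feeder iPSC (SD, n = 3), 5.98 ± 0.30 in feeder-free iPSC (SD, n = 3) and 11.08 ± 0.04 in feeder cells (SD, n = 2). On-feeder iPSC were 19.7-fold below feeder cells (log2 -4.30, SE 0.17) and 1.73-fold above feeder-free iPSC (0.79, SE 0.15; 0.49 with an offset of 50). Feeder-free iPSC were 34.2-fold below feeder cells (-5.10, SE 0.17), the 21st lowest difference of all genes.

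A second probe of Cxcl12, annotated to another transcript, showed the same order. It had 6.12, 6.33 and 5.94 on on-feeder arrays, 4.89, 5.01 and 5.09 on feeder-free arrays, and 9.32 and 9.51 on feeder arrays, with 2 of 3 feeder-free arrays above background. On-feeder iPSC were 1.13 above feeder-free iPSC (SE 0.12) and 3.29 below feeder cells (SE 0.14). The remaining probe, for the same transcript as the second, was above background on no array.

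The probes of Cxcl12 parted in the comparison with the mixture. The brighter probe had 7.14, 6.74 and 6.99 on on-feeder arrays and 7.82, 7.94 and 8.00 in the mixtures, a difference of -0.96 (SE 0.12), 1.95-fold lower on feeder and the 31st lowest of all genes. The second probe had 6.30, 6.52 and 6.11 on on-feeder arrays and 6.12, 6.34 and 6.51 in the mixtures, and its difference of -0.02 (SE 0.14) lay within the spread of the arrays. With the mean of both probes the difference was -0.49.

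**Figure D3:**
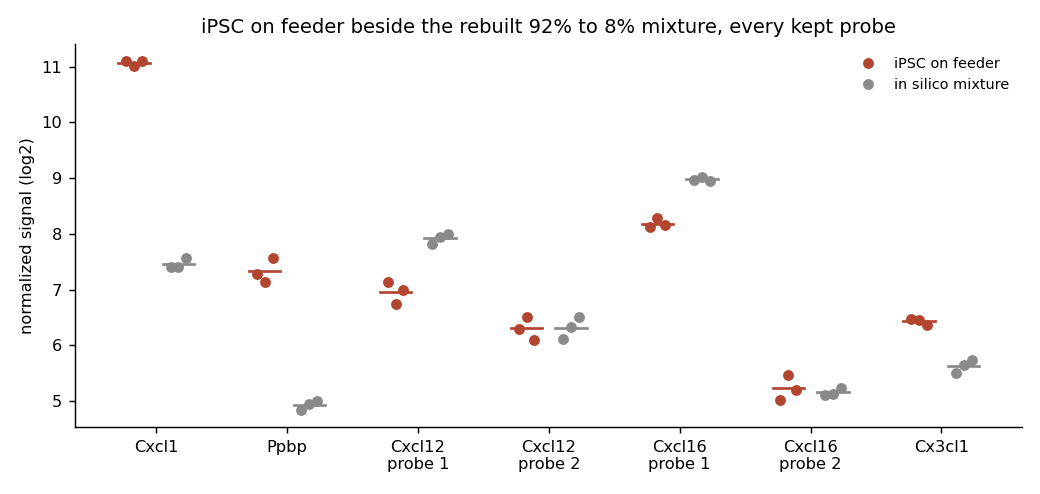
Normalized signal (log2) on the 3 on-feeder arrays beside the 3 rebuilt mixtures, for every kept probe of the 5 genes, with bars at the means. Cxcl1, Ppbp and Cx3cl1 lie above the mixture; the brighter probes of Cxcl12 and Cxcl16 lie below it, and the second probe of each overlaps it.

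Cxcl16, the scavenger receptor and ligand of Cxcr6, was the member highest in feeder-free iPSC. Its brighter probe had 8.00, 8.17 and 8.04 on on-feeder arrays, 8.99, 9.07 and 9.02 on feeder-free arrays, and 6.37 and 6.52 on feeder arrays. All 8 arrays were above background and the 3 groups did not overlap. The means were 8.07 ± 0.09 in on-feeder iPSC (SD, n = 3), 9.03 ± 0.04 in feeder-free iPSC (SD, n = 3) and 6.45 ± 0.11 in feeder cells (SD, n = 2). On-feeder iPSC were 1.94-fold below feeder-free iPSC (log2 -0.96, SE 0.10) and 3.08-fold above feeder cells (1.63, SE 0.11). Feeder-free iPSC were 5.99-fold above feeder cells (2.58, SE 0.11).

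Beside the mixture, the brighter Cxcl16 probe had 8.12, 8.29 and 8.16 on on-feeder arrays and 8.98, 9.02 and 8.95 in the mixtures, 1.74-fold lower on feeder (log2 -0.80, SE 0.09). A second probe was close to background and did not show these differences. It had 4.99, 5.38 and 5.14 on on-feeder arrays, 5.09, 5.11 and 5.22 on feeder-free arrays, and 5.0 and 4.86 on feeder arrays, where neither was above background. Its difference between on-feeder and feeder-free iPSC was 0.03 (SE 0.12), and those arrays overlapped. With the mean of both probes the gene's difference was -0.46, and it was -0.36 from the mixture, 0.93 from feeder cells and 1.40 for feeder-free iPSC against feeder cells.

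Cx3cl1, or fractalkine, had 6.29, 6.26 and 6.19 on on-feeder arrays, 5.09, 5.19 and 5.21 on feeder-free arrays, and 7.76 and 8.06 on feeder arrays. Feeder cells were the highest and feeder-free iPSC the lowest, with no overlap between groups. The feeder-free arrays were only just above background, with detection scores of 0.971, 0.975 and 0.973, so differences from them depend on the background correction. The means were 6.24 ± 0.05 in on-feeder iPSC (SD, n = 3), 5.16 ± 0.06 in feeder-free iPSC (SD, n = 3) and 7.91 ± 0.21 in feeder cells (SD, n = 2). On-feeder iPSC were 2.12-fold above feeder-free iPSC (log2 1.08, SE 0.10) and 3.17-fold below feeder cells (-1.67, SE 0.12). Feeder-free iPSC were 6.72-fold below feeder cells (-2.75, SE 0.12). Beside the mixture, Cx3cl1 had 6.47, 6.45 and 6.37 on on-feeder arrays and 5.51, 5.65 and 5.74 in the mixtures, 1.74-fold higher on feeder (0.80, SE 0.10). With an offset of 50 the differences shrank to 0.57 from feeder-free iPSC and 0.45 from the mixtures, and that of feeder-free iPSC from feeder cells to -1.75; with median scaling, on-feeder iPSC were at -1.11 from feeder cells.

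A feeder share was computed for each probe as the on-feeder signal above the feeder-free mean, divided by the feeder signal above the feeder-free mean, on linear background-corrected signal. It was set beside 91 feeder-specific probes, with a detection score over 0.99 on both feeder arrays and no detection on any feeder-free array. Their feeder signal also lay at least 100 units above the feeder-free signal. Over these probes the median share was 7.76%, with the central 90% from 0.422% to 34.1%. By on-feeder array the median was 7.14%, 3.28% and 10.5%. The authors' mixtures used 8%. Computed on quantile-normalized signal instead, a choice made after seeing the data, the median was 5.20%.

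Cxcl1 had a feeder share of 163%, with 166%, 113% and 211% on the 3 on-feeder arrays, above every feeder-specific probe. Cx3cl1 had 33.3%, with 34.7%, 22.0% and 43.2% by array, above 94.5% of the feeder-specific probes. On normalized signal it fell to 19.4%, still above 94.5% of them. Cxcl12 had 2.66% on its brighter probe, with 3.28%, 0.576% and 4.12% by array, and 7.89% on the second probe, with 7.92%, 6.95% and 8.79%. These stood above 22.0% and 50.5% of the feeder-specific probes. Unlike the feeder-specific probes, those of Cxcl1, Cx3cl1 and Cxcl12 were detected on feeder-free arrays, so these ranks set unlike probes side by side. No share is given for Ppbp, whose feeder and feeder-free signals were both near background. For Cxcl16, on-feeder iPSC lay 52.4% of the way from the feeder-free level down to that of feeder cells, on the brighter probe. Of the 5 measured fibroblast markers, Dcn had a feeder share of 93.8% and S100a4 of 56.1%. Pdgfrb, Thy1 and Col1a1 had 14.8%, 11.4% and 6.58%.

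**Figure D4:**
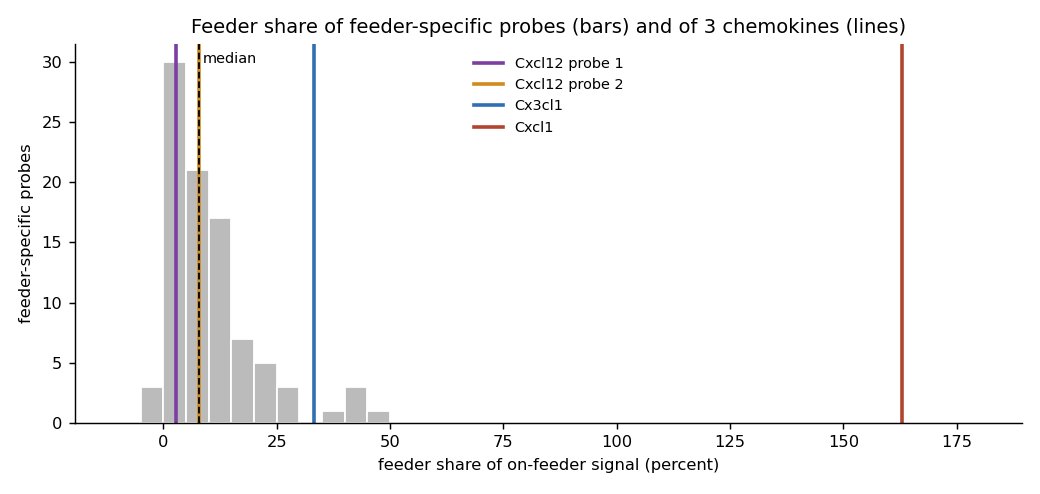
Number of feeder-specific probes (bars) by feeder share of their on-feeder signal in percent, with the median dashed and coloured lines for 3 chemokines. The probes centre on 7.76%, the Cxcl12 probes lie among them, Cx3cl1 is at 33.3% and Cxcl1 at 163%.

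The other CXC chemokines were near or below background. All 11 further CXC genes listed had probes, none passed the filter, and 8 were above background on no array by their brightest probe. The genes beside Cxcl1 and Ppbp on chromosome 5 were among these: Cxcl15, Cxcl2, Cxcl5 and Pf4 had highest detection scores of 0.285, 0.539, 0.292 and 0.787 over the 8 arrays, where a score over 0.95 counted as detected. Cxcl2 and Cxcl5 are further ELR ligands of Cxcr2.

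The receptors of the 5 chemokines were mostly not above background. Of 9 CXC and CX3C receptors, 1 was measured. On their brightest probes, Cxcr2, the receptor of Cxcl1 and Ppbp, Cxcr6, Cx3cr1 and Ackr3 were detected on no array. Their highest scores were 0.878, 0.839, 0.745 and 0.941. Cxcr4, the receptor of Cxcl12, was 5.86, 6.03 and 5.80 on on-feeder arrays, 6.13, 5.97 and 6.23 on feeder-free arrays, and 6.43 and 6.54 on feeder arrays. On-feeder and feeder-free arrays overlapped, and the log2 difference of -0.21 missed the threshold (limma adjusted p = 0.189), as did that against the mixture (-0.19, adjusted p = 0.289). Cxcr4 was 0.59 lower in on-feeder iPSC than in feeder cells (adjusted p = 0.000563), but with median scaling this difference was 0.13, of the other sign.

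Of the genes that carry the signal of such receptors, 8 of 15 listed were measured. In on-feeder against feeder-free iPSC, Rgs16, which shortens G protein signalling, was higher (0.78, adjusted p = 0.00124), and the G protein subunit Gnai2 and the arrestin Arrb2 were lower (-0.42 and -0.38, adjusted p = 0.0228 and 0.0183). The other 5 did not pass, and the list's median was -0.25 beside -0.02 over all genes. Against the mixture, 1 was higher (Rgs16) and 1 lower (Gnai2). Of all 10058 genes, 18.5% passed against feeder-free iPSC and 11% against the mixture. With median scaling in place of quantile normalization, Rgs16 alone passed against feeder-free iPSC and none of the 8 against the mixture.

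Among 12 sheddases, related proteases and their regulators, which release or cleave chemokines, 9 were measured. In on-feeder against feeder-free iPSC, 3 were higher and 1 lower, beside 18.5% of all genes called, with a median of 0.28. Mmp9 had the largest difference, at 6.19, 5.82 and 6.25 on on-feeder arrays, 5.32, 5.26 and 5.13 on feeder-free arrays, and 6.07 and 6.28 on feeder arrays. It was 0.85 higher on feeder than without (adjusted p = 0.000637) and 0.93 higher than the mixture (adjusted p = 0.00158). Mmp14 and Mmp2 were also higher (0.57 and 0.33, adjusted p = 0.0046 and 0.0446), and Rhbdf2, a partner that Adam17 needs to mature, was lower (-0.65, adjusted p = 0.0283). None of these 3 was past the threshold against the mixture, where 11% of all genes were. Timp3 and Rhbdf1, named after their values were seen, were lower there (-0.36 and -0.40). Adam17 was 8.74, 8.73 and 8.94 on on-feeder arrays and 8.76, 8.41 and 8.39 on feeder-free arrays, and its difference of 0.28 did not pass (adjusted p = 0.118). Adam10 was detected on no array by its brightest probe. With median scaling, Mmp9 alone passed against feeder-free iPSC and none of the 9 against the mixture (Mmp9 adjusted p = 0.0625).

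NF-kB is the transcription factor family best known for switching on Cxcl1 after interleukin-1, tumour necrosis factor or microbial products. Of 24 listed regulators, 19 were measured, and 7 were higher and none lower in on-feeder than in feeder-free iPSC by limma (9 and 2 at an unadjusted p under 0.05). Over all 10058 genes, 1009 were higher and 851 lower. The list's median was 0.26 beside -0.02 over all genes. The summed fibroblast marker signal given above moved the same way. Feeder-free iPSC were below feeder cells for 17 of the 19, beside 4130 of all 10058 genes. The part of feeder RNA in the count of 7 higher regulators was not tested. Against the mixture, 3 were higher and none lower, beside 571 and 535 of all 10058 genes, with a median of 0.03. With median scaling 4 passed against feeder-free iPSC (Rela, Nfkbie, Il1rap and Tlr4) and none of the 19 against the mixture.

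The NF-kB subunit Rela was 9.24, 9.25 and 9.43 on on-feeder arrays, 8.59, 8.23 and 8.41 on feeder-free arrays, and 11.06 and 11.17 on feeder arrays. It was 0.89 higher on feeder than without (SE 0.11, adjusted p = 0.000191) and 0.36 higher than the mixture (SE 0.10, adjusted p = 0.046). Il1rap, the shared chain of the interleukin-1 receptor, was 5.91, 5.96 and 5.82 on on-feeder arrays, 5.44, 5.05 and 4.95 on feeder-free arrays, and 6.72 and 6.64 on feeder arrays. It was 0.75 higher on feeder than without (adjusted p = 0.00152) and 0.76 higher than the mixture (adjusted p = 0.0048). Nfkbiz, a nuclear cofactor of NF-kB, was higher by 0.45 and 0.46 in the same comparisons (adjusted p = 0.0298 and 0.0404).

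The inhibitor Nfkbie was 1.05 higher on feeder than without (SE 0.15, adjusted p = 0.000481), but its difference from the mixture was -0.01 (adjusted p = 0.954). A second kept probe of Nfkbie gave 0.32 with an adjusted p of 0.0673 over probes. Tlr4, the lipopolysaccharide receptor, was 0.78 higher on feeder than without (adjusted p = 0.000402) and 0.38 from the mixture (adjusted p = 0.0624). The feeder shares were 8.04% for Nfkbie, 16.6% for Rela, 16.9% for Tlr4 and 90.2% for Il1rap.

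**Figure D5:**
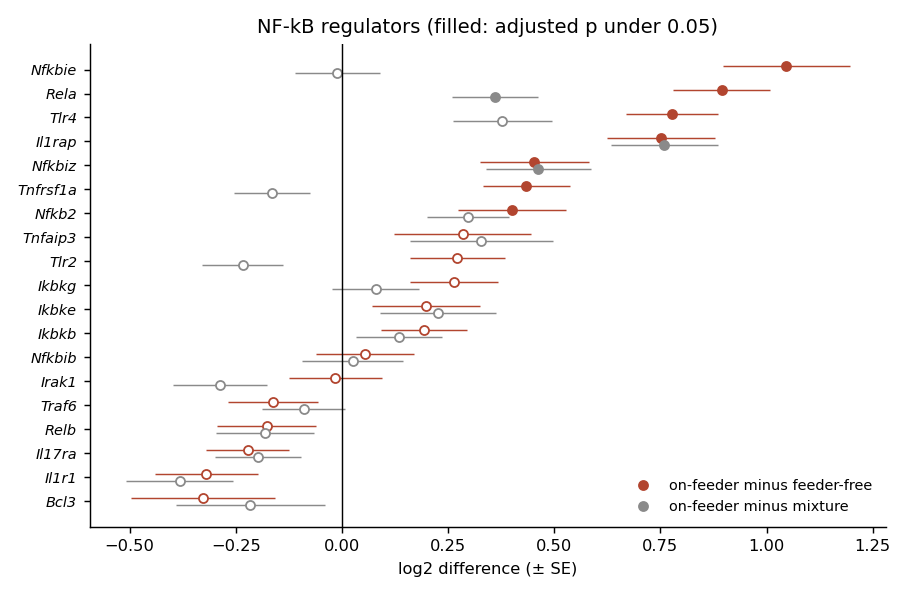
Log2 differences with standard errors of the 19 measured NF-kB regulators, on-feeder minus feeder-free in red and on-feeder minus mixture in grey; filled points had a limma adjusted p under 0.05. Against feeder-free iPSC 7 points are filled, all to the right of 0, and against the mixture 3 are filled.

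Of 7 proteins listed for control of chemokine mRNA decay, such as the AU-rich element binder Zfp36, 6 were measured. None passed the threshold between on-feeder and feeder-free iPSC by limma, though 2 higher and 1 lower had an unadjusted p under 0.05, and their median was 0.04. Against the mixture 1 was higher, Hnrnpd, named after its value was seen (0.37, adjusted p = 0.0443), and with median scaling none was. The share of all genes called against the mixture was 11%.

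Heparan sulfate proteoglycans and the enzymes that build them hold secreted chemokines at the cell surface, and 9 of 14 listed were measured. In on-feeder against feeder-free iPSC, 4 were higher and 1 lower, with a median of -0.06. The higher ones were Sdc2, Gpc1, Sdc3 and Sdc4 (0.98, 0.79, 0.53 and 0.34), with adjusted p-values of 0.000201, 0.000107, 0.00676 and 0.0495. Ext1, which builds the heparan sulfate chain, was lower (-0.68, adjusted p = 0.000349). Against the mixture, Sdc2 was higher (0.56, adjusted p = 0.014) and Ext1 lower (-0.55, adjusted p = 0.00472). Over all genes, 18.5% passed against feeder-free iPSC and 11% against the mixture. With median scaling, Sdc2 and Gpc1 passed against feeder-free iPSC and none of the 9 against the mixture.

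Since Ppbp is a platelet product and chemokines are made by many blood and vessel cells, markers of these cells were read as well. Of 8 platelet and megakaryocyte markers on the array, 3 were measured, and Pf4, Gp5, Gp6 and Gp9 were detected on no array. Their summed signal was 290 to 299 on on-feeder arrays, 268 to 280 on feeder-free arrays and 360 to 369 on feeder arrays. Selp, the adhesion receptor P-selectin, was detected on 3 of 3 on-feeder arrays and on no other. It was at least 1.70-fold higher than in feeder-free iPSC (limma adjusted p = 0.000286). This bound holds only for the background correction used. The Selp probe passed the filter through the on-feeder arrays alone, where it was high, so that p-value is no separate support. With an offset of 50 the log2 difference of Selp was 0.50, below the bound. The other measured markers, Gp1bb and Vwf, did not pass. Of 7 leukocyte markers, each read on its brightest probe, 6 were detected on no array, Ptprc, Itgam and Adgre1 among them. The seventh, Cd3e, did not pass (0.33, adjusted p = 0.0747), and the sums were 213 to 237, 202 to 213 and 166 to 167 in on-feeder iPSC, feeder-free iPSC and feeder cells. Of 6 measured endothelial markers, none was higher and 2 were lower in on-feeder than in feeder-free iPSC (Cdh5, -1.16, and Tek, -0.44). Over all genes, 18.5% were called in that comparison. The endothelial sums were 947 to 1080 on on-feeder arrays, 1076 to 1213 on feeder-free arrays and 342 to 372 on feeder arrays.

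The 5 chemokines did not share one pattern over the 8 arrays. Likeness was measured as the root mean square difference of log2 levels after each gene's own mean was removed, so that small values mean alike. Between members it was 1.11 for Cxcl12 and Cx3cl1, 1.56 for Cxcl1 and Ppbp, which share a cluster, and 3.13 for Cxcl1 and Cxcl16. This is a description over arrays that share their groups.

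The 3 genes nearest to Cxcl1 were still far from it: S100a4 at 0.75, Cav1 at 0.88 and Cd44 at 0.93. All 3 had their highest mean in feeder cells, unlike Cxcl1. Nearest to Ppbp were Mmp13 at 0.33, Ccl2 at 0.35 and Mmp10 at 0.45. Ccl2, a CC chemokine, averaged 7.03 on on-feeder arrays, 4.71 on feeder-free arrays and 6.26 on feeder arrays. The feeder-free mean of Ccl2 lay under the lowest signals above background on those arrays, 4.94 to 5.05. Ppbp was likewise highest on on-feeder arrays, while its feeder-free and feeder signals were near background and give no order. Mmp13 averaged 4.79 in feeder-free iPSC and 4.82 in feeder cells, also under those lowest signals, so its likeness to Ppbp partly compares background. No gene came within 0.3 of either Cxcl1 or Ppbp.

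The other members had many genes of like pattern. For Cxcl12, 11 genes lay within 0.3, led by Sspn at 0.18, Otx1 at 0.18 and Cgas at 0.21. For Cxcl16 there were 105, led by Anpep at 0.10, S100a1 at 0.13 and Lpar3 at 0.14. For Cx3cl1 there were 159, led by Tmx4 at 0.10, Ccnd1 at 0.13 and Klhl5 at 0.14.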

How the data were processed

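The deposited table, per the file headers, holds non-normalized bead intensity for 46632 entries, of which 5 without a probe ID were left out. Its detection column, headed as a p-value, rose with the signal (Spearman 0.9961 to 0.9987), so the deposited values were read as a score, 1 minus the detection p. The submitters' processing notes name limma, with no role stated. The authors' table of values normalized between arrays was not used.

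Feeder-free arrays were recovered as the mixture column minus 8% of the feeder mean, divided by 0.92, and gave back the deposited pooled columns to within 0.0471 signal units. Background was corrected by normexp from the detection scores (offset 16), followed by quantile normalization over the 8 arrays (limma 3.58.1, R 4.3.3). The filter kept 18144 probes, each with all arrays of some group over 0.95 in score, and the brightest kept probe stood for a gene, which gave 10058 genes. Of 46627 probes, 29972 had 1 symbol, 10 several and 16645 none.

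One limma fit over the 8 arrays gave group differences, with Benjamini-Hochberg adjustment over all genes. Mixtures were rebuilt at 92% and 8% from background-corrected signals and fitted with the on-feeder arrays alone; they share arrays with the other groups, so their p-values do not rest on independent samples. A probe below background on every array of a group has only a bound there. "At least" folds set the bright group's mean against the higher, per array, of the lowest signal above background and the dim probe's own. On-feeder and feeder-free arrays of the same number did not deviate together (correlations 0.025, 0.164 and -0.198), so numbers were not taken as pairs.

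The chemokines and all gene lists were chosen with earlier results of these data known. Named were all chemokines, up to 5 genes per list past the threshold by size, the receptors, Adam10 and Adam17, the cluster neighbours, and the 3 genes nearest in pattern. Detection and summed signals of list genes were read on the brightest probe of each gene alone. Sequences and positions are RefSeq's (GRCm38.p6). Alternatives covered normalization, background, filter, probe summary, the replicate block, the groups fitted, the deposited mixture columns and leaving out each array.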

Additional observations from a re-analysis of the deposited data

How the results depend on the processing

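No chemokine's difference changed sign under any alternative tried, but 61 of their 320 values moved by more than the spread of the arrays. Median scaling in place of quantile normalization called 399 genes in on-feeder against feeder-free iPSC, 77.4% of them higher against 54.2% before, and 110 against the mixture, 72.7% higher against 51.6%. In on-feeder and feeder-free iPSC against feeder cells it called 6354 and 6576 genes (64.5% and 64.0% higher, against 48.4% and 49.8%), and the median of all genes moved to 0.27 and 0.28. It also reversed 5 differences: Cxcr4 and Nfkbiz in feeder-free iPSC against feeder cells, to 0.31 and 0.19, and Cxcr4, Rgs16 and Mmp9 in on-feeder iPSC against feeder cells, to 0.13, 0.62 and 0.63. The cause was not tested.

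Leaving out single arrays gave 1156 to 2202 genes for on-feeder against feeder-free iPSC, with 1219, 1170, 1172 and 1156 without on-feeder replicates 1 and 3 and feeder-free replicates 2 and 3. Against the mixture it gave 407 to 1544, with 569, 540, 407 and 465 without the same 4 arrays. Against feeder cells it gave 7699 to 8192 for on-feeder and 7798 to 8373 for feeder-free iPSC. The replicate block gave 1735, 797 and 7987 genes in on-feeder iPSC against feeder-free iPSC, the mixture and feeder cells. It gave 8053 in feeder-free iPSC against feeder cells. The labels do not say whether a replicate number pairs samples. Of the values for list genes, 1583 kept direction and side of the threshold, 103 lost the call, 33 gained one and 5 reversed. Sdc4, Tek, Mmp2 and Nfkbiz in on-feeder against feeder-free iPSC lost theirs under 11, 10, 9 and 7 alternatives, and Gnai2, Rela, Nfkbiz and Sdc2 against the mixture under 8, 8, 7 and 4; Rgs16, Mmp9, Il1rap and Ext1 against the mixture lost theirs under median scaling (adjusted p = 0.0737, 0.0625, 0.119 and 0.45). Chemokine differences near background, such as those of Ppbp in feeder-free iPSC, are limited by signal over background.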
